A study of Homo sapiens with 2 samples.

Results

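The RNA-binding motif (RBM) genes encode proteins named for the RNA recognition motif, a fold that lets a protein hold a short stretch of single-stranded RNA. They were taken as all protein-coding genes of the autosomes and the X chromosome in the RefSeq gene table of GRCh38.p14 whose symbol starts with RBM, without RBM17 and RBM25. These were 45 of 19817 protein-coding genes, and their bodies held 11 of the 2960 deletion sites deposited for SF3A1. The choice rests on the symbol, but the family was picked with earlier results of these data known, so its counts are a description and carry no test. The count includes 2 read-through genes, RBM14-RBM4 and RBM27-POU4F3, which share their bodies with RBM14 and RBM4 and with RBM27.

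SF3A1 was immunoprecipitated from C4-2B prostate cancer cells, of a derivative made ready for CRISPR interference, in 2 libraries that form the only group. Per the labels, cells were collected 48 h after seeding. Crosslinking used ultraviolet light of 254 nm at 400 mJ/cm2, and the antibody amount was 2 µg. The labels name no treatment or control, and they do not say whether the derivative is a single clone. The deposited list pools the libraries and gives for each position the number of sequenced tags over it and the number that lack the base. Reverse transcriptase can skip a base that carries a crosslinked remnant of protein, so such a deletion can mark a contact. Because the list is pooled, no value has an error between replicates and the depth of each library is unknown. Over all sites 213787 of 246057 tags carried the deletion, and no site had fewer than 13 deleted tags. Among luminal prostate marker genes KLK3 held 4 sites and KLK2, CDH1, TMPRSS2 and FOLH1 held 1 each, while of the 6 markers of other cells only VIM held a site.

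SF3A1 belongs to the U2 small nuclear ribonucleoprotein, which recognises the branch point of an intron and is loaded onto nearly every pre-mRNA. Several RBM proteins work in or beside the spliceosome, and others act on RNA after splicing, in methylation, export, decay, editing or ribosome assembly. Genes for RNA-binding proteins are known to carry alternatively spliced exons through which their own output is controlled. The sites described here lie on the RNA or the genomic region of RBM genes and say nothing of where RBM proteins bind.

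Of the 45 RBM genes, 9 held at least 1 site, 20% with a 95% Clopper-Pearson interval of 9.58 to 34.6, beside 10.2% of all protein-coding genes. The 9 were RBM4, RBM6, RBM14-RBM4, RBM19, RBM26, RBM33, RBM39, RBM41 and RBM47. From the shares of other protein-coding genes in the same stratum of gene-body length (10 equal strata), 4.77 genes would hold a site, so the observed number was 1.89 times that number. The interval of the RBM share includes the share of all protein-coding genes. RBM4, RBM19 and RBM39 held 2 sites each, and the other 6 held 1, beside 2.1% of all protein-coding genes with 2 or more. RBM gene bodies held 3.82 sites per Mb and the bodies of other protein-coding genes 1.99 per Mb. A single position in the shared body of RBM4 and RBM14-RBM4 was counted for both genes; without the read-through gene 8 of 44 genes held a site, 1.71 times the number from genes of the same length.

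**Figure D1:**
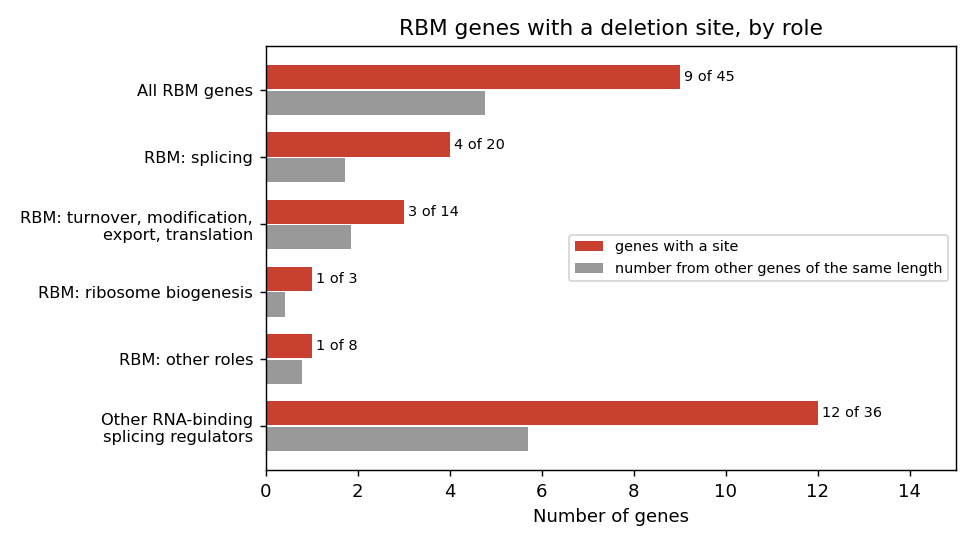
Number of genes with at least 1 deletion site (red bars, labelled with the size of each group) for all RBM genes, their 4 role groups and a list of other RNA-binding splicing regulators, with the number obtained from the site shares of other protein-coding genes of the same length (grey bars). The red bar is longer than the grey bar in each row, by 9 against 4.77 genes for the whole family.

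Of the 20 genes of the splicing group 4 had a site, against 1.71 from genes of the same length. Their share of 20% equalled that of the whole family. These 4 genes held 6 of the 11 sites, or 5 of 10 without the RBM6 site, which lay on the strand opposite to its gene. RBM4, a regulator of alternative splice site choice, lies on the plus strand of chromosome 11 from 66638703 to 66668380 and held 2 sites 9062 nt apart. The first, at position 66640779 and 2077 nt from the start of the gene body, had the deletion in 95 of 95 tags (Clopper-Pearson interval of the share 96.2 to 100%). The second, at 66649841 and 11139 nt from the start, had it in 17 of 17 tags (80.5 to 100%). With 6.74 sites per 100 kb, RBM4 was the densest of the 9 genes. Among the 200 other protein-coding genes nearest to it in length, 21 held a site and 5 held 2 or more.

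RBM39, a relative of the polypyrimidine tract factor U2AF2 that also acts as a coactivator of steroid receptors and is the target of aryl sulfonamide degraders, lies on chromosome 20 from 35701347 to 35742260. Its sites were both on the minus strand, 12077 nt apart. The site at 35742116 had the deletion in 21 of 21 tags (83.9 to 100%), and the site at 35730039 in 15 of 15 tags (78.2 to 100%). The strand of RBM39 is not in the table used here. Read along the strand of its sites, the first lay 145 nt from the edge of the gene body, the nearest approach to a gene start in the family. Of the 200 genes nearest to RBM39 in length, 19 held a site and 1 held 2 or more. Its sites were among the least covered of the family, with 13.2% and 4.16% of the sites in protein-coding genes having fewer deleted tags.

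RBM41, a protein of the minor spliceosome related to the U11/U12 protein RNPC3, lies on the minus strand of the X chromosome from 107052102 to 107118822. Its site at 107114275, 4548 nt from the start, had the deletion in 29 of 32 tags, or 90.6% (74.98 to 98.0%). This was the only RBM site with tags that kept the base, 3 of them. RBM6, a splicing regulator related to RBM5 and RBM10, lies on the plus strand of chromosome 3 from 49940150 to 50077249. Its site at 50004290 had the deletion in 47 of 47 tags (92.5 to 100%) but lay on the minus strand, opposite to the gene, and no other annotated gene covers the position. The site therefore need not belong to RBM6 RNA.

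The remaining 16 genes of the splicing group held no site. They were RBM4B, RBM5, RBM8A (the exon junction protein Y14), RBM10, RBM11, RBM20 (the regulator of titin splicing), RBM22 (a protein of the active spliceosome), RBM23, RBM24, RBM42, RBM48 (a factor for minor introns), RBMX (hnRNP G), RBMX2, RBMXL1, RBMXL2 and RBMXL3. RBM20 is 196 kb long, and 38 of the 200 genes nearest to it in length held a site. The absence of a listed site is not evidence that SF3A1 tags were missing, since only positions past the authors' false discovery rate are in the list.

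Genes that act on RNA after or beside splicing held 3 sites, each in a different gene, and these included the best covered ones. Of the 14 genes of this group 3 had a site, against 1.85 from genes of the same length. RBM26, a zinc finger protein that with RBM27 links polyadenylated nuclear RNA to the exosome, lies on the minus strand of chromosome 13 from 79311827 to 79406255. Its site at 79314668 had the deletion in 177 of 177 tags (97.9 to 100%), the highest number in the family and more than at 94.7% of all sites in protein-coding genes. It lay 91588 nt from the start and 2841 nt before the end of the gene body. RBM33, known as a cofactor of the RNA demethylase ALKBH5, lies on the plus strand of chromosome 7 from 155644661 to 155781480. Its site at 155767665, 13815 nt before the end, had the deletion in 141 of 141 tags (97.4 to 100%), more than at 90.1% of the sites in protein-coding genes.

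RBM47, a cofactor of cytidine-to-uridine RNA editing by APOBEC1, lies on the minus strand of chromosome 4 from 40423280 to 40630852 and was the longest RBM gene with a site, at 208 kb. Its site at 40553917, 76936 nt from the start, had the deletion in 19 of 19 tags (82.4 to 100%). With 0.48 sites per 100 kb it was the least dense of the 9 genes, and 40 of the 200 genes nearest in length held a site. The genes of this group without a site were RBM3 (a cold-induced protein), RBM7 (a subunit of a nuclear exosome targeting complex), RBM15 and RBM15B (adaptors of the adenosine methylation complex), RBM27, RBM38, RBM43, RBM46, RBMS1, RBMS2 and RBMS3. RBMS3 spans 729 kb and RBMS1 222 kb, and both were longer than any RBM gene with a site. Of the 200 genes nearest in length, 42 held a site for RBMS3 and 53 for RBMS1.

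Of the 3 ribosome biogenesis genes, RBM19, which acts in the processing of ribosomal RNA precursors, held 2 sites and RBM28 and RBM34 held none, against 0.41 genes with a site from genes of the same length. RBM19 lies on the minus strand of chromosome 12 from 113816740 to 113966325. The site at 113903064, 63262 nt from the start, had the deletion in 23 of 23 tags (85.2 to 100%). The site at 113821322, 4582 nt before the end, had it in 32 of 32 tags (89.1 to 100%). These sites were 81742 nt apart, the widest gap of the 3 genes with a pair. Of the 200 genes nearest to RBM19 in length, 53 held a site and 15 held 2 or more. Of the 8 genes with other or less clear roles, RBM14-RBM4 counted through the site it shares with RBM4, against 0.80 from genes of the same length, while RBM12, RBM12B, RBM14, RBM18, RBM27-POU4F3, RBM44 and RBM45 held none.

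**Figure D2:**
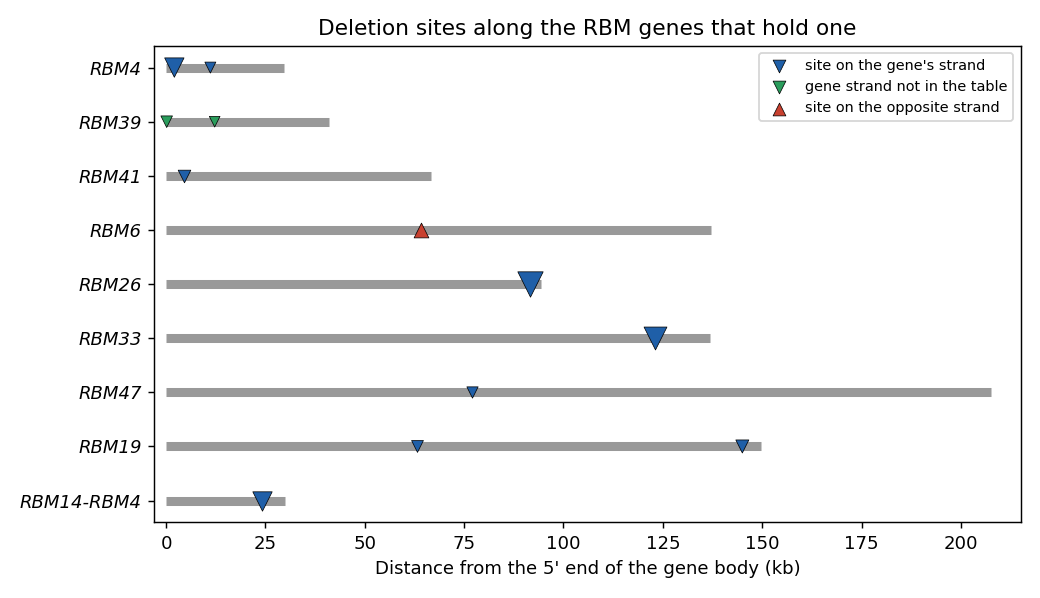
Gene bodies of the 9 RBM genes with a site (grey bars, to scale in kb from the 5′ end), with each deletion site as a triangle whose area grows with its number of deleted tags. Blue marks sites on the strand of the gene, green the RBM39 sites, placed along their own strand, and red the RBM6 site on the opposite strand; the large triangles of RBM26 (177 deleted tags) and RBM33 (141) stand near the 3′ end.

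Sites followed the strand of the gene in nearly all cases where it was known. Of 41 RBM genes with a strand in the table, 7 had a site on their own strand, beside 10% of all protein-coding genes of known strand. Counted per gene, so that the shared RBM4 position counts for both of its genes, 9 of 10 sites in RBM genes of known strand were on the gene's strand, and RBM6 gave the exception. In other protein-coding genes 2073 of 2195 such sites were on the gene's strand, 94.4% (Clopper-Pearson interval 93.4 to 95.4). In genes that overlap no other gene, as RBM6 does not, it was 2 of 3 RBM sites, beside 638 of 652 (97.9%) in other genes. With each position counted once and placed in RBM4 rather than RBM14-RBM4, 8 of the 11 sites lay in the first 50% of the gene body. Among the 8 sites on the strand of their gene 5 lay there, beside 47.4% of the own-strand sites of other genes. With the body cut into 10 equal parts, the first held 3 sites, in RBM4, RBM39 and RBM41, and the last held 2, in RBM19 and RBM26. No site lay between that of RBM6, at 46.8% of the gene length, and that of RBM33, at 89.9%. Within 5000 nt of the gene end lay 2 of the 8 own-strand RBM sites, beside 16.6% of the own-strand sites of other genes. No RBM site fell in the windows from 250 nt before to 50 nt after an annotated start, which the RefSeq table gives for 41 of the 45 genes. Such windows of all genes together held 19 of the 2960 sites.

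RBM genes with a site were mostly the longer ones. Their median length was 94.4 kb (29.7 to 208, n = 9), and that of the RBM genes without was 13.6 kb (2.15 to 729, n = 36). RBM4, at 29.7 kb, was the shortest RBM gene with a site, and 24 RBM genes were shorter. In the 5 strata of shorter genes, up to 24.5 kb, lay 21 RBM genes with 0 sites, against 1.13 genes with a site from other genes of those lengths. In the next 3 strata, up to 84.5 kb, 4 of 14 had a site, against 1.64. RBM14-RBM4 is counted among these 4 only through the position it shares with RBM4. In the 2 strata of longest genes 5 of 10 had a site, against 2.00. The stratum from 84.5 to 153 kb held RBM6, RBM19, RBM26 and RBM33, so 4 of its 6 RBM genes had a site, beside 18.2% of the other genes there. It is named as the stratum with the highest RBM share. Its RBM6 site lay on the opposite strand, and its genes include RBM27 and the read-through gene RBM27-POU4F3. The grouping of strata into bands was not planned beforehand.

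**Figure D3:**
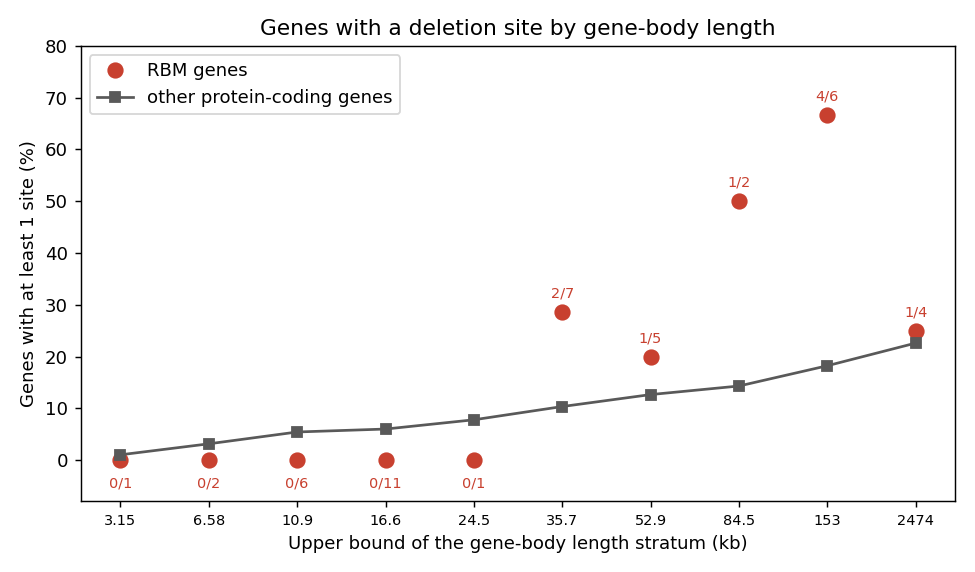
Share of genes with at least 1 deletion site in 10 equal strata of gene-body length, each marked on the x axis by its upper bound in kb, for RBM genes (red points, with counts) and for other protein-coding genes (grey line). RBM points are at 0 in the 5 shorter strata and above the grey line in the 5 longer ones. Each red point rests on 11 genes or fewer. Those above the line rest on 2 to 7 genes each, of which 1 to 4 held a site.

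Sites were also set out by close relatives within the family. Grouped by known paralogy, a grouping made after the values were seen, 10 sets of 2 to 4 genes covered much of the family. No gene of 5 sets held a site, and in the other 5 sets a single gene held all the sites, which was the longest member of its set. A site was held by 20% of all RBM genes and 10.2% of all protein-coding genes, and nothing is read from the sets beside these shares. RBM4 (29.7 kb) had 2 sites and RBM4B (12.9 kb) none, although the bodies of these genes overlap at their 3′ ends. RBM39 (40.9 kb) had 2 and its relative RBM23 (25.9 kb) none. RBM6 (137 kb) had the opposite-strand site, and RBM5 (30.1 kb) and RBM10 (41.6 kb) had none. RBM26 (94.4 kb) had 1 and RBM27 (85.6 kb) none, and RBM47 (208 kb) had 1 and RBM46 (47.5 kb) none. The sets of RBM12, RBM15, RBM24 with RBM38, RBMS and RBMX genes had no site. Relatives can share sequence, and how tags with several matching places were treated is not given beyond the word unique in the name of the list. None of the 32 pseudogenes and none of the 12 long noncoding RNA genes with a symbol starting with RBM held a site.

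The deletion was complete at 10 of the 11 RBM sites, 90.9% (Clopper-Pearson interval 58.7 to 99.8), beside 77.3% of the sites in protein-coding gene bodies. Altogether 616 of 619 tags over RBM sites carried it. No RBM gene held a site with a share under 90%, beside 0.732% of all protein-coding genes; 150 of 2560 sites of other protein-coding genes (5.86%) had such a share. Most RBM sites were shallow: the median was 29 deleted tags (15 to 177), beside 49.5 (13 to 2628) at sites of other protein-coding genes. Of the 11 sites 8 lay under that median of 49.5, and only the RBM26, RBM33 and first RBM4 sites lay above it. At 15 to 47 tags the lower bound of a complete share was between 78.2% and 92.5%, so an underlying share of intact tags is not excluded at these sites. At 15 to 32 tags that bound was under 90%, so an underlying share under 90% is not excluded there.

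**Figure D4:**
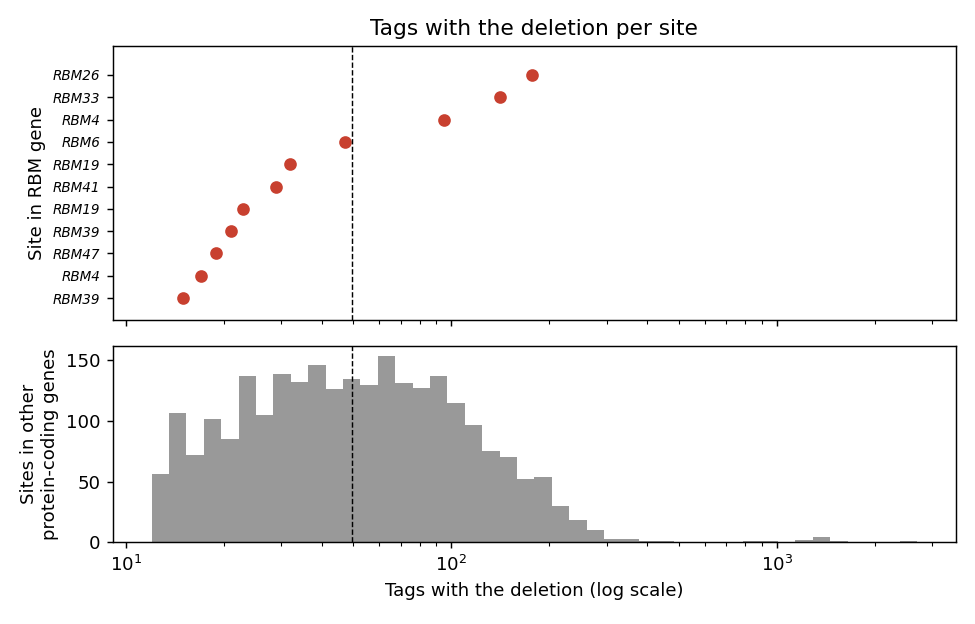
Tags with the deletion at each of the 11 RBM sites (upper panel, 1 point per site, labelled by gene) and at the 2560 sites of other protein-coding genes (lower panel, histogram), on a shared log axis; the dashed line is the median of the latter, 49.5. The RBM points run from 15 tags in RBM39 to 177 in RBM26, with 8 of 11 left of the line.

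Near the RBM genes, 3 further sites lay within 10 kb of a body that held none. They were 6844 nt from RBM18 in MRRF (21 of 21 tags), 7958 nt from RBM42 in HAUS5 (14 of 14) and 5618 nt from RBM10 in UBA1 (13 of 13). Of the genes left out by the selection, RBM25, a U1-associated splicing factor, held 1 site with the deletion in 43 of 43 tags, and RBM17, which binds U2 snRNP proteins, held none. Of 14 genes with RBM only among their older symbols, 2 held a site, SCAF8 (once RBM16) with 79 of 79 tags and RBFOX2 (once RBM9, and also among the regulators that follow) with 47 of 47, against 1.39 from genes of the same length. RNPC3, the relative of RBM41, held none. ESRP1 and ESRP2, which like RBFOX2 are also among the regulators that follow, held none either.

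Other RNA-binding regulators of splicing gave a count of the same order. Of 36 such genes outside the RBM family, 12 held a site (33.3%, Clopper-Pearson interval 18.6 to 51.0), against 5.70 from genes of the same length, 2.11 times that number, beside 1.89 times for the RBM genes. With only sites on the gene's own strand the order turned, with ratios of 1.53 for these regulators and 1.63 for the RBM genes. That setting also dropped genes without a known strand. It kept 25 of the 36 regulators and 41 of the 45 RBM genes, so the gene sets differ from those above. The intervals of the shares overlap widely, and the difference was not tested. NOVA1, a neuronal splicing factor, held 4 sites with 157 deleted of 158 tags. MSI2 held 2 with 124 of 125, and CELF1 held 2 with 45 of 45. TIA1, which promotes use of weak 5′ splice sites, held 1 with 88 of 88. The list holds no measure of RNA amount, so more contacts and more RNA of a gene cannot be told apart.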

How the data were processed

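The authors deposited 1 list of single-base positions with a whole-number count of tags carrying a deletion, pooled over 2 libraries. The number of all tags at a position was read from its name. Per the file's name, tags were unique and sites were filtered by crosslink-induced mutation site analysis at a false discovery rate of 10 percent. Per the submitters' processing notes, cutadapt, BWA 0.7.17, SAMtools and UMI-tools were used with build hg38; no settings are recorded there. Counts were used as deposited, without normalization.

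Sites on either strand were assigned to RefSeq gene bodies of GRCh38.p14, introns included, which shares its primary coordinates with hg38; 58410 of 59792 table rows, those on the assembled autosomes and X, were used. Coordinates are 1-based. Gene strand came from the RefSeq table of start regions and was known for 79.8% of protein-coding genes. Exons and genome sequence were not used here, so sites were not split into exon and intron. Numbers from genes of the same length are sums of the site shares of non-member genes over 10 length strata. Their calculation was checked on simulated sites placed in proportion to gene length, with and without a raised rate in the members. That check covers the calculation only and says nothing of the ratios reported here. Intervals are exact 95% Clopper-Pearson intervals and cover counting error only. The members, role groups and comparison list were chosen with earlier results of these data known, so no test was run. All members with a site are named with every site, and of the comparison list the 4 genes with the most sites. 1 marker gene is not reported here. Alternatives concerned filters on sites, overlapping genes, strand, length matching and membership. Python 3.11.15, numpy 2.4.6, pandas 2.3.3, scipy 1.17.1 and matplotlib 3.10.9 were used.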

Additional observations from a re-analysis of the deposited data

How the results depend on the processing

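The number of RBM genes with a site was 1.52 to 2.06 times the number from other protein-coding genes under 12 of 14 settings. The ratio as reported was 1.89. Of the 12, 1 used no length matching and had a ratio of 1.97. Merging sites within 50 nt cannot change which genes hold a site, so its ratio of 1.89 was fixed in advance. Leaving out members over 300 kb removed only RBMS3, which held no site, so the ratio could only rise, to 1.98. The direction turned where only incompletely deleted sites were kept: 1 gene, RBM41, with 1 site and a ratio of 0.79 for a share under 1, and 0 genes, 0 sites and a ratio of 0 for a share under 0.9, where 0.36 genes would be found from genes of the same length. These settings leave few sites by construction. Keeping sites above the median number of deleted tags left 4 genes with 3 sites, 100% of them complete. Genes that overlap no other gene left 3 of 18 genes with 3 sites (RBM6, RBM33 and RBM41). The other settings gave 7 to 11 genes and 8 to 13 sites, including 2 added after seeing the data, with older RBM symbols included (11 genes) and without both read-through genes (8 genes). For the other RNA-binding splicing regulators, 12 genes as reported became 6 above the median number of deleted tags. They became 1 and 3 with a share under 0.9 and under 1, and 6 of 13 without overlapping genes. On the gene's own strand 6 of the 25 regulators of known strand had a site. Their ratio, 2.11 as reported, was 3.90 without overlapping genes, 3.29 without length matching, 1.53 on the gene's own strand and 1.75 above the median number of deleted tags, and 1.91 to 2.65 under the others. The cause of these shifts was not tested. No paired analysis was possible because the list pools the replicates; for the same reason no library could be left out. Complete deletion cannot be distinguished from a high share at sites with few tags.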
